A study of Mus musculus with 8 samples.

Results

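Genes best known from B cells were followed across sorted mouse blood monocytes, which are myeloid cells. The group held 10 genes of 18193 measured, namely Cd22, Cd79a, Cd79b, Ms4a1, Blk, Bank1, Cd37, Ighm, Ly6d and Ebf1. Each was read from probe sets annotated to exactly 1 gene symbol, and a gene with several was represented by its brightest one, by mean over the 8 arrays. The genes were selected on their measured log2 values in the Gr1lo and Gr1hi arrays, where Cd22 and Cd79b seemed to differ between monocyte subsets when core B cell genes did not. For these 10 genes the difference between subsets is therefore described here and not tested.

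RNA came from blood monocytes of male C57BL/6 mice that had received fluorescent latex microspheres of 1 µm intravenously and whose cells were sorted 4 days later. The groups were Gr1lo cells with beads, Gr1lo cells without beads, Gr1hi cells with beads and Gr1hi cells without beads, with 2 Affymetrix arrays each. Gr1lo cells are the nonclassical, Ly-6C-low monocytes and Gr1hi cells the classical, Ly-6C-high ones; neither the age of the mice nor whether animals were pooled was stated in the descriptions used here. Bead-carrying and bead-free cells were separated by sorting. Per the design text, clodronate liposomes, which deplete phagocytes, were given 3 days before the beads; the treatment protocol reserves them for the labelling of Gr1hi cells, so the subsets may also differ in pretreatment. All values below are log2 expression values, each difference is on the log2 scale, SD is the standard deviation between arrays, and SE is limma's moderated standard error.

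B cells sense antigen through surface immunoglobulin, whose signal is carried into the cell by the paired chains Cd79a and Cd79b. Src-family kinases such as Blk start that signal, adaptors such as Bank1 relay it, and sialic-acid-binding Cd22 restrains it by recruiting phosphatases. The transcription factor Ebf1 sets up this programme in early B cells. Monocytes carry no rearranged immunoglobulin genes, yet they use many of the same downstream kinases and phosphatases for their Fc receptors and integrins.

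The subsets carried the markers of their labels. Array medians lay between 6.12 and 6.19, and the correlation within a group was 0.993 to 0.996. A background level of 6.98 was set from 115 olfactory, vomeronasal, taste and keratin-associated genes, which monocytes are not known to use. The nonclassical markers Treml4, Eno3 and Cd36 were higher in Gr1lo cells by 4.29, 4.64 and 5.63, and the classical markers Vcan, F13a1 and Mmp8 were lower there by differences of -5.45, -4.51 and -4.32. Vcan and Mmp8 in Gr1lo cells and Cd36 in Gr1hi cells had means below the background level, so these 3 differences have no exact size. Array 1 of the bead-free Gr1lo group stood apart for some genes: Cd24a, a glycoprotein of many immature blood cells, read 11.01 on it and 8.89 on its partner. For several differences of the 10 genes, values with and without it are given. Whether less RNA per cell or fewer cells of one kind gave a lower value cannot be told apart in such bulk samples.

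The 10 genes fell into a group of 5 above background in all 4 groups of arrays and a group of 5 below it in all 4. Cd22, Cd79b, Bank1, Cd37 and Ighm made up the first group. Cd79a, Ms4a1, Ebf1, Blk and Ly6d made up the second, and on no array did any of these 5 exceed 6.32. Of all genes, 48.3% had a mean above the background level.

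**Figure D1:**
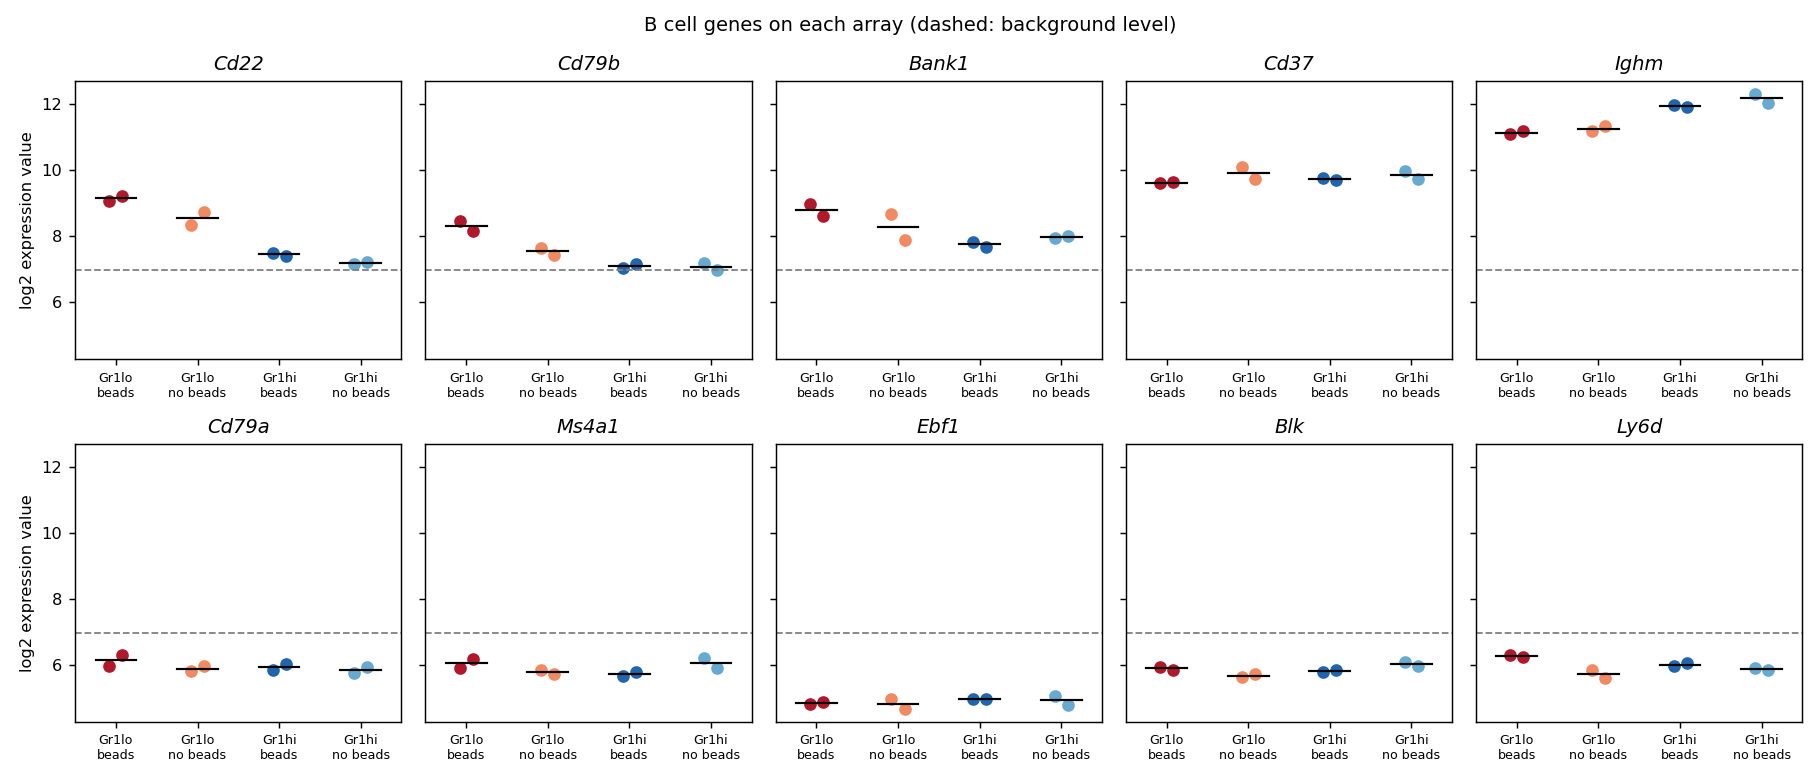
Log2 expression value (vertical axis) of the 10 genes on each of the 8 arrays, by group; points are arrays, short lines are means of 2 arrays and the dashed line is the background level of 6.98. Cd22 and Cd79b sit higher in Gr1lo than in Gr1hi cells, Ighm sits lower, and the 5 genes of the bottom row stay under the dashed line.

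Cd22, the inhibitory sialic-acid-binding receptor of the Siglec family, was higher in Gr1lo than in Gr1hi monocytes whether or not they carried beads. It read 9.07 and 9.23 in Gr1lo cells with beads and 8.34 and 8.75 in Gr1lo cells without beads. In Gr1hi cells it read 7.50 and 7.41 with beads and 7.15 and 7.22 without. All 4 Gr1lo arrays lay above all 4 Gr1hi arrays. The Gr1lo mean was 8.85 ± 0.39 (SD, n = 4 arrays) and the Gr1hi mean 7.32 ± 0.16 (SD, n = 4 arrays), a difference of 1.53, or 2.89-fold. With beads the difference was 1.70, and without beads 1.36. The second Cd22 probe set gave the same order at a lower level, with means of 7.02 and 6.02 in Gr1lo cells with and without beads. Its Gr1hi means were 4.83 with beads and 4.57 without, so that it differed by 1.82 between subsets and passed the background level only in bead-carrying Gr1lo cells.

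Cd79b, one of the paired signalling chains of the B cell receptor, was also higher in Gr1lo cells, by less. It read 8.47 and 8.16 in Gr1lo cells with beads and 7.66 and 7.45 in Gr1lo cells without beads. In Gr1hi cells it read 7.03 and 7.17 with beads and 7.20 and 6.97 without, at about the background level. The subsets did not overlap. The means were 7.93 ± 0.47 in Gr1lo cells and 7.09 ± 0.11 in Gr1hi cells (SD, n = 4 arrays each), a difference of 0.84, or 1.79-fold. The difference was 1.22 with beads and 0.46 without.

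Its partner chain Cd79a, without which Cd79b does not form a B cell receptor complex, showed no such step. Cd79a read 5.98 and 6.32 in Gr1lo cells with beads and 5.81 and 5.96 in Gr1lo cells without. It read 5.84 and 6.03 in Gr1hi cells with beads and 5.76 and 5.96 without. The ranges overlapped, every value lay below background, and the difference between subsets was 0.12.

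The other core genes behaved like Cd79a. Ms4a1, which encodes the B cell surface protein CD20, read 5.72 to 6.20 in Gr1lo cells and 5.67 to 6.20 in Gr1hi cells, a difference of 0.03. Ebf1 read 4.67 to 4.97 in Gr1lo cells and 4.80 to 5.08 in Gr1hi cells, a difference of -0.12. All 5 Ebf1 probe sets were below background, with differences between -0.12 and 0.07. The mean of Cd79a, Ms4a1 and Ebf1 lay between 5.45 and 5.80 on every array and differed by 0.01 between subsets, beside 1.53 for Cd22 and 0.84 for Cd79b. Values below background bound what the array can show, so a small difference in these 3 genes would not have been detectable.

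Blk, a Src-family kinase of B cells, and Ly6d, a surface protein that marks B-lineage progenitors, were below background as well. Blk read 5.95 and 5.85 with beads and 5.65 and 5.72 without in Gr1lo cells, against 5.80 and 5.86 with beads and 6.10 and 5.96 without in Gr1hi cells. Ly6d was at 6.32 and 6.24 in Gr1lo cells with beads and at 5.87 and 5.62 in Gr1lo cells without. In Gr1hi cells Ly6d was at 5.97 and 6.06 with beads and at 5.91 and 5.84 without. Between subsets Blk differed by -0.14 and Ly6d by 0.07, with overlapping arrays for both.

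Bank1, a scaffold protein that links B cell receptor kinases to calcium release, leaned toward Gr1lo cells but overlapped. It read 8.99 and 8.61 in Gr1lo cells with beads and 8.68 and 7.88 in Gr1lo cells without. The Gr1hi arrays read 7.84 and 7.67 with beads and 7.94 and 8.01 without. Array 2 of the bead-free Gr1lo group fell among the Gr1hi arrays and the other 3 Gr1lo arrays lay above them. The mean difference was 0.67, with 1.05 in bead-carrying and 0.30 in bead-free cells; without array 1 of the bead-free Gr1lo group it was 0.47, and without array 2 of that group 0.87.

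Cd37, a tetraspanin of the leukocyte surface that is not limited to B cells, was high and level. It read 9.61 and 9.64 in Gr1lo cells with beads, 10.11 and 9.75 in Gr1lo cells without, 9.77 and 9.71 in Gr1hi cells with beads, and 9.99 and 9.75 in Gr1hi cells without. The difference was -0.03. Its second probe set, near background at a mean of 6.96, disagreed and was higher in Gr1lo cells by 0.67, so that the mean of both probe sets differed by 0.32.

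Ighm, the constant region of the IgM heavy chain, ran in the opposite direction to Cd22. It read 11.09 and 11.18 in Gr1lo cells with beads, and 11.18 and 11.35 in Gr1lo cells without. It read 11.98 and 11.91 in Gr1hi cells with beads, and 12.32 and 12.04 in Gr1hi cells without. The 4 Gr1lo arrays lay below the 4 Gr1hi arrays, at 11.20 ± 0.11 against 12.06 ± 0.18 (SD, n = 4 arrays each), a difference of -0.86. Of 11 Ighm probe sets, 3 had a mean above background. The 2 brightest differed by -0.86 and -0.76, whereas the third differed by -0.05; the mean over all 11 differed by -0.16. The brightest carries the suffix by which Affymetrix marks probes shared among related transcripts, and 4 further probe sets that name Ighm together with other immunoglobulin genes were left out, so its reading as Ighm alone is uncertain.

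**Figure D2:**
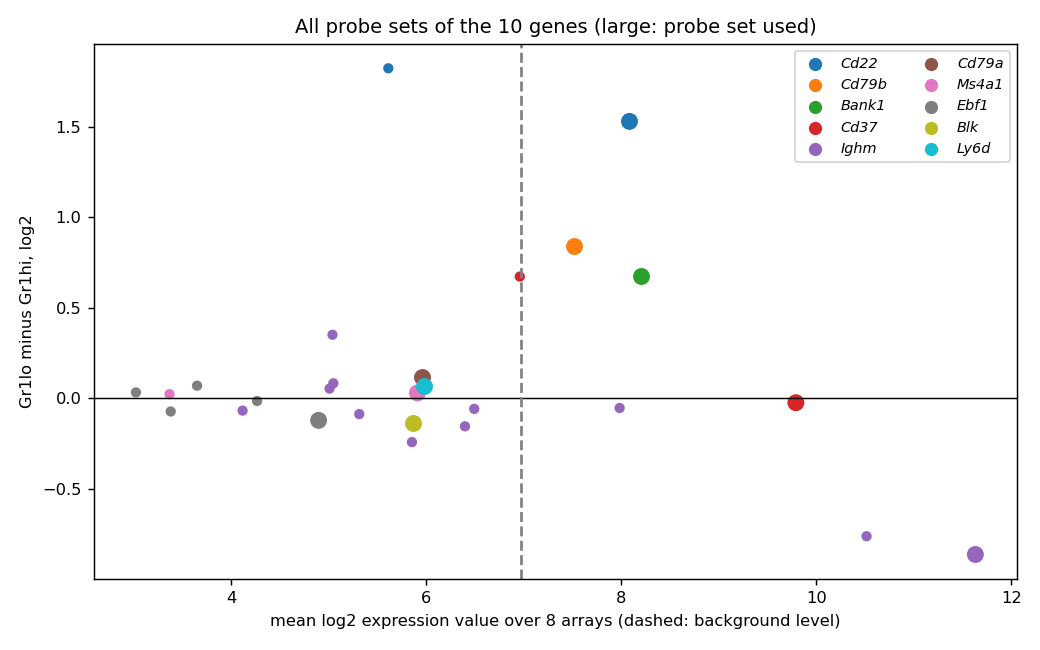
Difference between Gr1lo and Gr1hi arrays on the log2 scale (vertical axis, 4 arrays each) against the mean log2 value over 8 arrays (horizontal axis) for all 27 probe sets of the 10 genes; large points are the probe sets used and the dashed line is the background level. Both Cd22 probe sets lie at the top, at 1.53 and 1.82, and the 2 brightest Ighm probe sets at the bottom right, at -0.86 and -0.76.

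Set side by side, 3 of the 10 genes had subsets that did not overlap, Cd22 and Cd79b above and Ighm below in Gr1lo cells. Over all genes, Gr1lo arrays lay wholly above Gr1hi arrays in 13.9% and wholly below in 19.7%, and nothing is read from the members' count. The median difference of the 10 genes was 0.05, and that of all genes -0.05. Levels of different genes are not compared, because probe sets differ in brightness. By size of difference the order was Cd22, Cd79b, Bank1, Cd79a, Ly6d, Ms4a1, Cd37, Ebf1, Blk and Ighm, and from Cd79a to Blk neighbours did not differ beyond the spread of their arrays. The differences of Cd79b (0.84) and Bank1 (0.67) were also closer to each other than the SD of their Gr1lo arrays over both bead states, 0.47 for both genes. Their order is therefore not resolved.

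**Figure D3:**
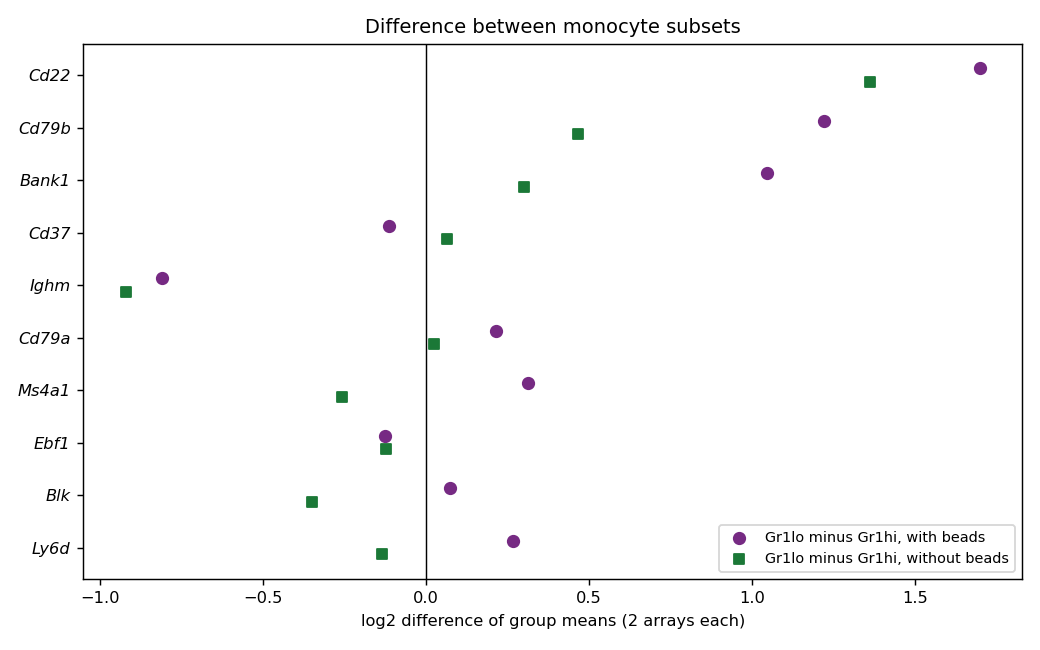
Difference of group means, Gr1lo minus Gr1hi, on the log2 scale (horizontal axis) for the 10 genes, with beads (circles) and without beads (squares), 2 arrays per mean. Cd22, Cd79b and Bank1 are on the right in both comparisons and Ighm on the left, while Cd79a, Ms4a1, Ebf1, Blk and Ly6d lie between -0.35 and 0.31.

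Promoter sequence was looked at for the genes of that contrast, since Cd22 and Bank1 leaned toward Gr1lo cells while Cd79a stayed below background. RefSeq promoters of GRCm38.p6 (250 bases before to 50 after a start site) were matched by symbol for 5 of the 10 genes, Bank1, Cd22, Cd37, Cd79a and Ebf1. The sequences of Cd22, Bank1 and Cd79a are printed 5′ to 3′ on the strand of the gene. Capitals mark matches, on either strand, to CCCNNGGG, the palindrome bound by Ebf1, or to GAGGAA, the box bound by the myeloid and B cell factor PU.1. The octamer ATTTGCAT of immunoglobulin promoters was searched too.
Cd22, minus strand, chr7:30878979-30879278: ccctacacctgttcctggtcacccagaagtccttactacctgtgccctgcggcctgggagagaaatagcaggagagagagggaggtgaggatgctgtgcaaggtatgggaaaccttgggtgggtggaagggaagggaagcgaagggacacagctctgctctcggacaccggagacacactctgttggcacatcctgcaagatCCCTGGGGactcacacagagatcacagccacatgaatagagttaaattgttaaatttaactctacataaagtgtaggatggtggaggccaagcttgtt
Bank1, minus strand, chr3:136326017-136326316: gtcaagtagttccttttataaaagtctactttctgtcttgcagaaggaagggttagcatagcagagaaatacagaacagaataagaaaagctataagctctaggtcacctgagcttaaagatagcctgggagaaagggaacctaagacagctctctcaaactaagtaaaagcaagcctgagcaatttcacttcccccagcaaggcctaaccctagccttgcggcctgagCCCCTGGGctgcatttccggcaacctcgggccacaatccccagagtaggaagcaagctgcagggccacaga
Cd79a, plus strand, chr7:24897247-24897546: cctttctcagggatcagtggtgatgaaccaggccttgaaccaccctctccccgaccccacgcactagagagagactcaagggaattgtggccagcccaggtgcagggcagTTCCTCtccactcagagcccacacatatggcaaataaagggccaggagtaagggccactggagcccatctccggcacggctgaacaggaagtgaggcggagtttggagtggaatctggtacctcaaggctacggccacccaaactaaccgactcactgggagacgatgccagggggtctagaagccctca
The Cd22 window holds 1 palindrome at base -48 from its start site, which lies inside the annotated gene. The Bank1 window holds 1 at base -21. The Cd79a window holds no exact match to the palindrome but 1 PU.1 box on the reverse strand at base -140. None of these 3 holds the octamer. The Cd37 window, not printed, holds PU.1 boxes at bases -168 and -23, although Cd37 was level between subsets. An Ebf1 window, not printed, holds a PU.1 box at base -130. No exact palindrome was found for Cd37 or Ebf1. Of 32851 mouse promoters of this length, 13.7% hold the palindrome, 28.3% the PU.1 box and 1.74% the octamer, so either of the first 2 is common. A match is a description of the letters and not of binding. Only exact matches to these letters were searched, so a window without one may still hold an Ebf1 site of another spelling.

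Bead-carrying cells were next compared with bead-free cells of the same subset, a contrast that the choice of genes did not name. In Gr1lo cells Cd79b was 0.77 ± 0.13 (SE) higher with beads than without, Cd22 0.61 ± 0.13 and Ly6d 0.54 ± 0.10, and for each the bead-carrying arrays lay above the bead-free ones. None passed the main test, which took no replicate pairs. Limma's Benjamini-Hochberg adjusted p was 0.0947 for Cd79b, 0.140 for Cd22 and 0.113 for Ly6d, over 18193 genes. Of the 10 genes limma called 0 in Gr1lo cells at an adjusted p under 0.05, where 0.225% of all genes were called. At an unadjusted p under 0.05 there were 5, namely Cd79b, Cd22, Ly6d and Blk higher and Cd37 lower, where 13.2% of all genes reached that level. Cd37 differed by -0.31, by -0.13 without array 1 of the bead-free Gr1lo group and by -0.48 without array 2. Cd79b differed by 0.87 and Ly6d by 0.67 without the first of these arrays, and by 0.66 and 0.42 without the second. Bank1 differed by 0.52 ± 0.23 (SE; limma adjusted p = 0.385), by 0.92 without the first of these arrays and by 0.12 without the second. The median difference of the 10 genes was 0.26 and that of all genes 0.02.

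The Cd22 value in Gr1lo cells rested on the spread of the bead-free arrays. Without array 2 of that group the difference was 0.81 and limma called it (adjusted p = 0.0105), and without array 1 it was 0.40 (adjusted p = 0.402). Over its alternatives the limma adjusted p of Cd22 lay between 0.0105 and 0.453. For Cd79b it lay between 0.0301 and 0.300, and the call was made with trended, robust moderation (adjusted p = 0.0301) and with the replicate number as a block within each subset (adjusted p = 0.0481).

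In Gr1hi cells no gene of the group was called either. Cd22 differed by 0.27 ± 0.13 (SE; limma adjusted p = 0.556) and Cd79b by 0.01 ± 0.13 (adjusted p = 0.990). Ms4a1 differed by -0.31 ± 0.14 (limma adjusted p = 0.502) at values below background, and by -0.16 without array 1 of the bead-free Gr1hi group. Of the 10 genes limma called 0, with 0.247% of all genes called, and 1, Ms4a1, had an unadjusted p under 0.05, against 9.93% of all genes.

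Averaged over both subsets, Cd22 was 0.44 ± 0.09 (SE) higher with beads (limma adjusted p = 0.0875), Cd79b 0.39 ± 0.10 (adjusted p = 0.127) and Ly6d 0.34 ± 0.07 (adjusted p = 0.0875). Of the 10 genes limma called 0, where 0.764% of all genes were called, and 5 had an unadjusted p under 0.05, against 15.3% of all genes. Cd22 was called on this average without array 2 of the bead-free Gr1lo group (0.54, limma adjusted p = 0.00994), with trended, robust moderation (adjusted p = 0.0359) and with the block within each subset (adjusted p = 0.0390). Without array 1 of that group it was 0.34 (adjusted p = 0.115).

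The bead difference in Gr1lo cells minus that in Gr1hi cells was 0.76 ± 0.19 (SE) for Cd79b (limma adjusted p = 0.510), 0.74 ± 0.33 for Bank1 (adjusted p = 0.633) and 0.34 ± 0.19 for Cd22 (adjusted p = 0.703). Without array 1 of the bead-free Gr1lo group it was 1.14 for Bank1 and 0.14 for Cd22, and without array 2 it was 0.35 for Bank1 and 0.54 for Cd22, none of them called. Limma called 0 of the 10 genes, with 0.0440% of all genes called, and 4 of them (Blk, Cd79b, Ly6d and Ms4a1) had an unadjusted p under 0.05, against 7.84% of all genes. The larger Cd79b and Bank1 steps between subsets in bead-carrying cells are thus not shown to differ from those in bead-free cells.

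**Figure D4:**
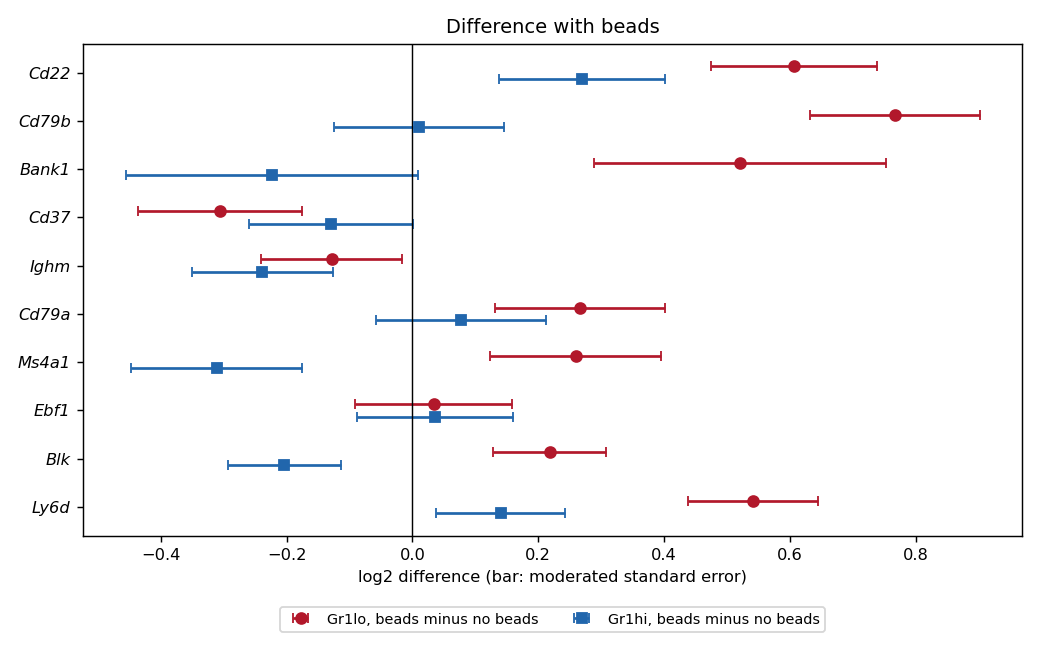
Difference between arrays with and without beads on the log2 scale (horizontal axis) for the 10 genes in Gr1lo cells (circles) and Gr1hi cells (squares); bars are limma's moderated standard errors. Cd79b at 0.77, Cd22 at 0.61 and Ly6d at 0.54 lie furthest right in Gr1lo cells, and no difference shown was called.

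The poly-A controls, bacterial RNAs added to each sample before labelling, moved with bead state. Their mean over 27 probe sets was 9.69 and 9.71 in Gr1lo cells with beads against 8.64 and 8.13 without, and 8.82 and 9.17 in Gr1hi cells with beads against 7.30 and 7.63 without. Over both subsets they differed by 1.42 with beads (exact permutation test within subsets, two-sided p = 0.0556, the lowest possible with 36 assignments). Their part in the bead differences above was not tested.

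Other B cell genes were read from a list of 28, of which 24 were measured and 13 lay above background in at least 1 group. Pax5, the factor that commits cells to the B lineage, read 6.47 to 6.71 on all arrays and the receptors Cr2 and Fcer2a 5.02 to 5.25 and 4.98 to 5.30, all below background. The transcription factors Spib and Pou2af1 were below background in all 4 groups too. Bcl11a and Pou2f2, also transcription factors, were higher in Gr1lo cells by 1.025 and 1.63, with no overlap of subsets. Bcl11a was above background in all 4 groups and Pou2f2 in 3. Other genes of the list were above background in all 4 groups, among them Vpreb3 at 7.04 to 7.48, Ralgps2 at 7.75 to 8.45 and Cd180 at 8.64 to 9.23. At a limma adjusted p under 0.05, 8 of the 24 were higher and 3 lower in Gr1lo cells, where 14.8% and 20.9% of all genes were. The list was chosen with this contrast known, so these counts only describe it and no enrichment is read from them. The median difference of the 24 was 0.09. The largest differences among those above background were 3.07 for Stap1, an adaptor of receptor signalling, -2.34 for Cd24a and 1.65 for H2-Ob, a modulator of MHC class II loading. The mean of H2-Ob was above background only in bead-free Gr1lo cells, so its difference has no exact size. With beads averaged over subsets, Fcrl1, an Fc receptor-like protein of B cells, rose by 0.42 ± 0.06 (SE; limma adjusted p = 0.0345). Btla, an inhibitory lymphocyte receptor, fell by 0.65 ± 0.09 (adjusted p = 0.0229). No gene of the list was called within either subset alone, where 0.225% of all genes were called in Gr1lo and 0.247% in Gr1hi cells. At an unadjusted p under 0.05 there were 9 of 24 in Gr1lo cells, against 13.2% of all genes. In Gr1hi cells there were 2, against 9.93%.

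Fcrl1 ran alongside Cd22 in its values. It read 8.11 and 7.92 in Gr1lo cells with beads and 7.59 and 7.56 in Gr1lo cells without, and 7.47 and 7.46 in Gr1hi cells with beads and 7.10 and 7.04 without. As with Cd22, the subsets did not overlap, and the bead-carrying arrays of each subset lay above the bead-free ones.

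Genes that act downstream of the B cell receptor and also in myeloid cells were all above background, 22 of 22 measured of 24 listed. This list too was chosen with the subset contrast known. As a description, the median difference was 0.41 against -0.05 for all genes. The tetraspanins Cd81 and Cd82 differed by 2.67 and 2.52, and the Src-family kinase Fyn by 2.08. The kinases Syk, which docks on phosphorylated Cd79a and Cd79b, and Btk differed by 0.37 and 0.01. Ptpn6, the phosphatase that Cd22 recruits, differed by 0.56 and read 11.90 to 12.01 in Gr1lo cells against 11.18 to 11.62 in Gr1hi cells. Limma called 0 of the 22 with beads in either subset, where 0.225% of all genes were called in Gr1lo and 0.247% in Gr1hi cells. At an unadjusted p under 0.05 there were 2 in Gr1lo and 4 in Gr1hi cells, against 13.2% and 9.93% of all genes.

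**Figure D5:**
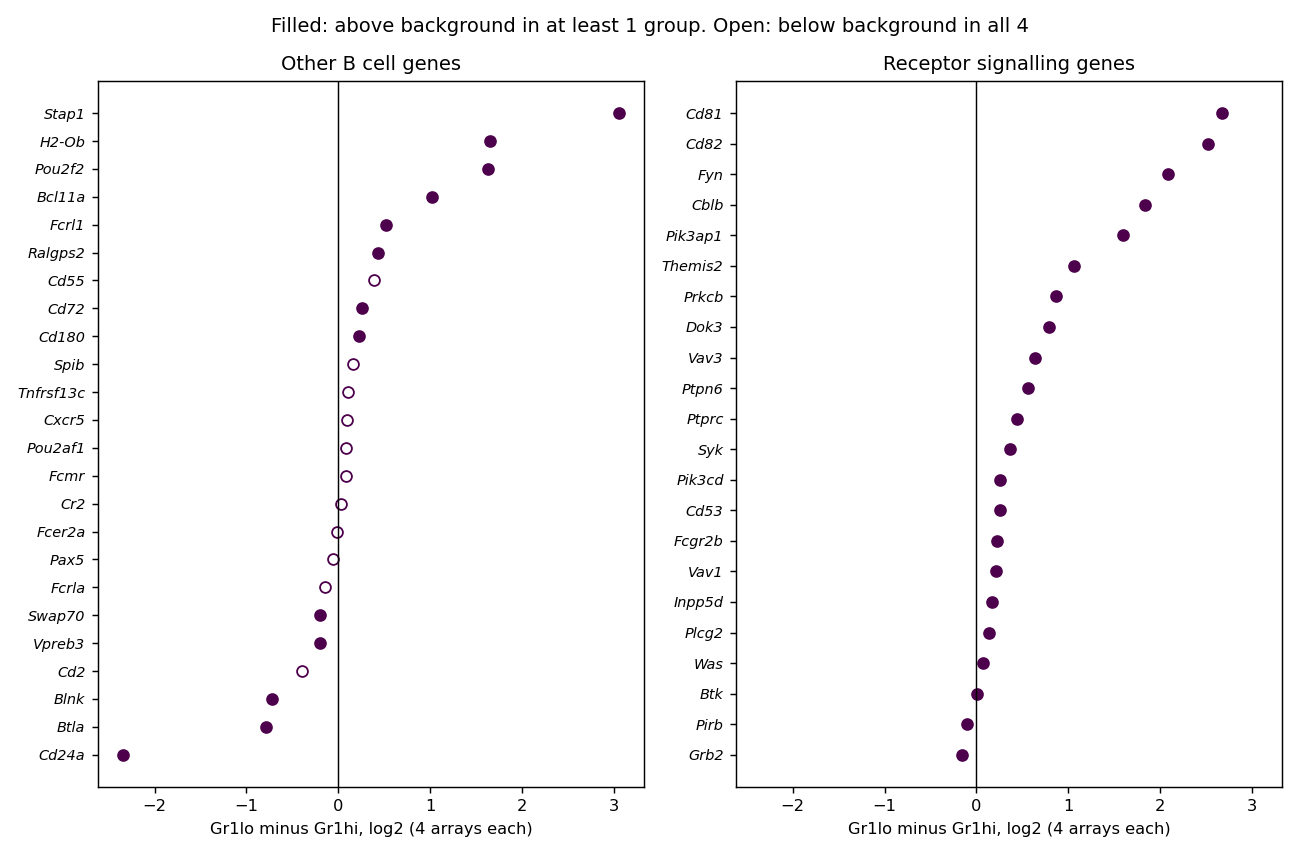
Difference between Gr1lo and Gr1hi arrays on the log2 scale (horizontal axis, 4 arrays each) for 24 other B cell genes (left) and 22 receptor signalling genes (right); filled points were above background in at least 1 group. B cell genes such as Pax5 and Cr2 are open points near 0, while Bcl11a and Pou2f2 are filled points to the right of 0. Stap1 at 3.07, Cd81 at 2.67 and Cd82 at 2.52 lie furthest right.

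Of the other Siglec genes, 7 of 8 were measured and 2 lay above background. Cd33 differed in the opposite direction to Cd22, at -1.54, with 7.36 to 7.76 in Gr1lo cells and 8.93 to 9.30 in Gr1hi cells. Siglec1, a sialoadhesin of macrophages, differed by -0.08. Siglecg, another inhibitory Siglec of B cells, read 5.76 to 6.03 in Gr1lo cells and 5.82 to 6.40 in Gr1hi cells, below background. Limma called 0 of the 7 in any bead comparison, where at most 0.764% of all genes were called. At an unadjusted p under 0.05 there were 1 in Gr1lo cells and 2 in Gr1hi cells, against 13.2% and 9.93% of all genes. On average there were 2, against 15.3%, and for the difference of bead effects 2, against 7.84%.

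Markers of other cells were read beside these genes. Plasma cell genes (8 of 9 measured, 6 above background) averaged 7.31 to 7.32 in Gr1lo cells with beads and 7.41 to 7.48 without, against 7.40 to 7.70 in Gr1hi cells with beads and 7.71 to 7.80 without. Jchain, the joining chain of secreted IgM, moved in the direction of Ighm, with 4.23 and 4.56 in Gr1lo cells with beads and 4.53 and 4.94 without, against 5.15 and 6.38 in Gr1hi cells with beads and 7.65 and 6.79 without. Only in bead-free Gr1hi cells was its mean above background. Irf4 differed between subsets by -0.55 and Sdc1 by 0.27. Sdc1 was above background in all 4 groups, with group means from 7.02 to 7.45. Mzb1, taken as a plasma cell marker along with Jchain and Sdc1, read 6.44 to 6.89 on all arrays, below background. The part of plasma cells in the Ighm difference was not tested.

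Plasmacytoid dendritic cells, which also use some B cell genes, had 11 of 12 genes measured and 5 above background. Their list averaged 7.36 to 7.43 in Gr1lo cells with beads and 7.31 to 7.35 without, and 7.58 to 7.59 in Gr1hi cells with beads and 7.57 to 7.59 without. Bst2 differed by -1.29, Il3ra by -0.56 and Irf8 by -0.45. The defining genes Siglech, Ccr9 and Pacsin1 were below background on every array. The part of these cells in the Cd79b difference was not tested.

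T cell genes (12 of 16 measured, 3 above background) averaged 6.07 to 6.08 in Gr1lo cells with beads and 6.12 to 6.25 without, and 6.39 to 6.40 in Gr1hi cells with beads and 6.22 to 6.25 without. Cd28 was called higher with beads in Gr1hi cells (0.93 ± 0.11 SE, limma adjusted p = 0.0253). Only in bead-carrying Gr1hi cells was the Cd28 mean above background, so this difference has no exact size. Cd3e differed between subsets by -0.21 and Cd8a by -0.12. NK cell genes (9 of 10 measured, 3 above background) averaged 5.85 to 5.95 in Gr1lo cells with beads and 6.25 to 6.29 without, and 5.86 to 5.95 in Gr1hi cells with beads and 6.06 to 6.11 without. In Gr1lo cells Klrd1 fell to 5.26 and 5.28 with beads, against 7.55 and 7.80 without (limma adjusted p = 7.68e-05). Klrk1 differed there by -1.01 with beads (limma adjusted p = 0.0781), and the median of the NK list was 0.009. The bead-carrying Gr1lo means of Klrd1 and Klrk1 were below background, so neither difference has an exact size. Gzma and Klrk1 differed between subsets by 0.22 and 0.21. The defining genes Ncr1 and Eomes were below background on every array. The part of NK cells in the Klrd1 difference was not tested.

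The monocyte marker lists give the scale against which these B cell genes moved. All 10 measured nonclassical markers of 11 were higher in Gr1lo cells with a median difference of 3.19, and all 6 measured classical markers of 9 were lower with a median of -3.47. With beads, limma called 5 classical markers lower in Gr1lo cells (Chil3, F13a1, Vcan, Mmp8 and Cd177), where 0.225% of all genes were called. The median of that list was -2.09, in the samples where Cd22 and Cd79b read highest. In Gr1hi cells limma called 3 nonclassical markers higher with beads, Treml4 by 0.67, Adgre4 by 0.90 and Eno3 by 0.86, against 0.247% of all genes. Their part in the Cd22 and Cd79b differences was not tested.

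Genes whose values most resembled Cd22 were sought among 1633 genes above background with a range of at least 1 over the arrays. The closest by Pearson correlation over 8 arrays were Vamp5 (r = 0.995), Nod1 (0.992), Zfp36l1 (0.992), Itga4 (0.990) and Cd9 (0.989). Vamp5 averaged 8.78 with beads and 8.14 without in Gr1lo cells, and 6.92 with beads and 6.68 without in Gr1hi cells, and Cd9 12.22 and 11.62 in Gr1lo cells and 9.19 and 8.68 in Gr1hi cells. For Cd79b the closest were Gpr31b (0.949), Phxr4 (0.947), Rexo5 (0.945), Ptp4a3 (0.944) and Mllt6 (0.943). Among the 10 genes Cd22 correlated most strongly with Ighm, inversely (-0.945), then with Cd79b (0.893) and Bank1 (0.731). With the core genes the values were 0.571 for Cd79a, -0.527 for Ebf1 and 0.116 for Ms4a1. For the mean of Cd79a, Ms4a1 and Ebf1 the closest, F8a, reached 0.661, followed by Rab5c (0.574), Rraga (0.562), Gatad2b (0.514) and Cbr2 (0.514). These correlations describe 8 arrays in 2 subsets, which share the step between subsets.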

How the data were processed

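Values on the log2 scale for 45101 probe sets on 8 arrays, with 0 missing, were used as deposited. Per the series design text and the submitters' processing notes, RMA values were made with the R package oligo and tested with limma, with no versions stated. RMA includes a quantile normalisation, which sets the probe intensities of all arrays to 1 distribution. Differences at low values are compressed on such arrays. Of the probe sets, 34945 carried 1 symbol and gave 18193 genes.

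A mean per group was estimated from all 8 arrays together with lmFit and eBayes in limma 3.58.1 (R 4.3.3; residual degrees of freedom 4, prior 4.48), with Benjamini-Hochberg adjustment over all genes and calls at an adjusted p under 0.05, two-sided. The script was tested on simulated data. Depth has no equivalent on arrays; 2 arrays per group limit the precision, and whether they came from separate mice is stated only as biological replicates. Background was taken as percentile 95 of the array-averaged values of the 115 genes named in the report. Poly-A controls were the 27 probe sets for Dap, Lys, Phe, Thr and Trp. The members and lists were chosen with earlier results of these data known. Named genes were the members, the 5 most correlated with Cd22, Cd79b and the mean of Cd79a, Ms4a1 and Ebf1, and, of each list, those called in a bead comparison and the 3 above background with the largest difference between subsets; Pax5, Syk, Btk, Ptpn6 and other list genes beyond the rule were chosen after their values were seen. Samples with the same replicate number deviated together within subsets (correlation 0.27 in Gr1lo and 0.36 in Gr1hi cells). Across subsets they did not (-0.02 to 0.09). The labels tie no batch to the numbers, and the main fit took no pairs. A pairing within subsets would bear on the bead comparisons, and the block within each subset shows its effect. Alternatives were a filter at background, probe set averaging, testing every probe set, fitting 1 subset, trended moderation, array weights, median centring, cyclic loess, replicate blocks and leaving out each array; a block within each subset was added after seeing the data. Tables and figures used pandas 2.3.3 and matplotlib 3.10.9 in Python 3.11.15.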

Additional observations from a re-analysis of the deposited data

Results flagged for a closer look

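Blk and Ms4a1 read higher with beads than without in Gr1lo cells and lower with beads in Gr1hi cells, with no overlap of arrays in either subset. The bead difference in Gr1lo cells minus that in Gr1hi cells was 0.57 for Ms4a1 (limma adjusted p = 0.591) and 0.42 for Blk (adjusted p = 0.558), neither called, and both genes were below background on every array. Among list genes this difference between bead effects was called for F13a1 (-2.71, limma adjusted p = 0.00443), Vcan (-2.46, adjusted p = 0.00778), Klrd1 (-2.10, adjusted p = 0.00443) and Chil3 (-1.40, adjusted p = 0.00443), each lower with beads by more in Gr1lo than in Gr1hi cells. Vcan in bead-carrying Gr1lo cells, and Klrd1 in all groups but bead-free Gr1lo cells, had means below background. Their differences therefore have no exact size. Groups of 2 arrays are too small to test for a single outlying array.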

How the results depend on the processing

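The Cd22 difference between subsets (1.53) lay between 1.43 and 1.63 without any 1 array, that of Cd79b (0.84) between 0.77 and 0.92, and that of the mean of Cd79a, Ms4a1 and Ebf1 (0.01) between -0.05 and 0.07. With the mean of probe sets, median centring or cyclic loess these stayed within the spread of replicates. The count of the 10 genes called with beads in Gr1lo cells was 0, and became 1 (Cd79b) with trended, robust moderation or the block within each subset; leaving out 1 array gave 0 to 1 (Cd22, without array 2 of the bead-free Gr1lo group). Averaged over subsets it was 0 and became 1 (Cd22) under the same 2 settings, and 0 to 1 without 1 array. In Gr1hi cells and for the difference of bead effects it was 0 throughout. With the replicate number as a block over all arrays the count was 0 in all 4 comparisons; the labels tie no batch to the numbers. Deviations of same-numbered arrays correlated at 0.27 within Gr1lo and 0.36 within Gr1hi cells, and at -0.02 to 0.09 across subsets. The poly-A difference of 1.42 lay between 1.29 and 1.55 without any 1 array.

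Of 768 further values of single genes, 759 kept their side of the threshold or stayed within the spread, 6 gained a call and 3 moved beyond the spread: Blk to -0.06 with median centring, and Cd37 to 0.32 and Ighm to -0.16 with probe sets averaged. The sign changed in 39 of the 768, none from a called value and all from differences of at most 0.18 in size. Counts over all genes moved more. In Gr1lo cells 41 became 12 to 127 under other settings and 17 to 354 without 1 array, in Gr1hi cells 45 became 33 to 121 and 0 to 58, on average 139 became 99 to 332 and 29 to 428, and for the difference of bead effects 8 became 5 to 17 and 1 to 167. The cause was not tested. Values below the background level of 6.98 limit what Cd79a, Ms4a1, Ebf1, Blk and Ly6d can show.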

Other observations

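Array 1 of the bead-free Gr1lo group read far from its partner for further genes of the B cell list. Blnk, the adaptor that links Syk to downstream enzymes, read 8.41 on it and 6.51 on array 2, with 6.69 and 6.65 on the bead-carrying arrays. Cd2, an adhesion receptor of T, NK and some dendritic cells, read 7.93 and 5.27, against 5.39 and 5.14 with beads. On the same arrays Bank1 read 8.68 and 7.88, Cd37 10.11 and 9.75, Cd79b 7.66 and 7.45, and Cd22 8.34 and 8.75, lower on array 1.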
